A study of Mus musculus with 21 samples.

Results

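Glutamate receptors and their auxiliary subunits were followed through 21 Affymetrix arrays of mouse dentate gyrus, in a study of the Nogo receptor NgR (gene symbol Rtn4r) expressed from a transgene. The members were 32 genes listed by symbol: AMPA, kainate, NMDA and delta receptor subunits, metabotropic receptors, and the TARP, cornichon and Neto auxiliary proteins. A probe set annotated to 1 gene symbol was found for 31 of the 32. Grin1 was not analysed here. Grik5 lay below the filter on low values, so 30 members were tested among 12499 genes, each through its brightest probe set. No measured value of the arrays had been used to choose the members by the rule, although the list was drawn up with earlier results of these data known.

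Bitransgenic mice carried the NgR transgene together with the tetracycline transactivator tTA, which drives the transgene in the absence of doxycycline. Monotransgenic mice carried NgR alone. In set 1 there were 3 arrays of bitransgenic mice given water after doxycycline had been removed, 3 of bitransgenic mice whose diet held doxycycline throughout, and 3 of monotransgenic mice on water without it. Experiment 2 had 3 arrays of bitransgenic mice given water and never exposed to doxycycline, and 3 of monotransgenic mice given water. Set 3 had 3 bitransgenic and 3 monotransgenic arrays, and its labels give no treatment. The labels name neither the promoter that drives tTA nor the strain, age or sex of the mice, and they do not say whether the arrays of a group came from separate animals. P-values therefore measure the spread between these arrays, which may be technical in part. Every group carried the NgR transgene, and the lack of tTA is stated for the monotransgenic mice of set 1. The bitransgenic arrays after doxycycline removal, of experiment 2 and of set 3 are called transgene-on, for set 3 by genotype alone.

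Fast excitatory transmission in the brain runs through ionotropic glutamate receptors, which are tetramers: AMPA receptors carry most of the current, NMDA receptors admit calcium and serve plasticity, and kainate receptors act on both sides of the synapse. In the dentate gyrus, granule cells receive glutamatergic input from the entorhinal cortex and send mossy fibres to CA3, where kainate receptors shape release. Auxiliary subunits set the trafficking and gating of the pores, and metabotropic receptors signal through G proteins.

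Rtn4r, which checks the labels, was highest where they place the transgene on. Its intensity, as deposited on a linear scale, was 1470, 329 and 254 on the arrays after doxycycline removal, 111, 87 and 73.1 on the diet, and 63.8, 98.4 and 79 on the monotransgenic arrays of set 1. It was 605, 365 and 753 in bitransgenic mice of experiment 2, against 113, 185 and 123 in monotransgenic mice, and 672, 755 and 562 against 133, 112 and 85.9 in set 3. Experiment 2 held 53.3% of the residual variance of the fit and had beta-actin 3′ to 5′ log2 ratios of 4.84 to 6.45, against 4.17 to 5.12 over the other sets. Xist intensity was 2360 to 4750 there, against 9.59 to 33.7 elsewhere. That of the Y-linked gene Eif2s3y was 0.316 to 9.84 there, against 395 to 680 elsewhere. Sex, read from these genes, thus differed between experiment 2 and the other sets and cannot be told apart from set. Differences were therefore taken within a set, and those between sets were differences of these. The fit, however, shared 1 estimate of spread per gene over all 21 arrays. Experiment 2 therefore enters the standard errors and limma p-values of every set. Array 2 of the monotransgenic group of set 3 stood apart: its Rtn4r was that of its label, while several members, given in their place, lay at the level of bitransgenic arrays, and its share of the residual variance was 5.23%, against 2.04% to 3.19% for the other arrays of the set. It was singled out by the values of those same members, so their p-values without it are conditional on that choice and are given as a description. By title it shares a prefix with array 1 of the bitransgenic group, and the arrays numbered 3 of both groups share another, while the labels do not say what a prefix marks. The arrays with the first prefix had the highest mean log2 levels of the inhibitory neuron list in set 3, at 8.17 (bitransgenic) and 8.03 (monotransgenic), and those with the other had 7.45 each. The tests and left-out fits treat these arrays as independent, and the differences of Grik3 and Grin3a in set 3 are also given with the prefix as a factor. The members' results that moved without array 2 are given both ways, and the other named differences of set 3, of Cacng2, Cacng7 and Grm2, were 0.31, 0.34 and -0.34 without it.

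The dentate granule cell was identifiable on all arrays: 13 of its 14 markers passed the filter, with a mean log2 level of 9.92 to 10.45. Over the 3 comparisons of transgene on with monotransgenic, 0 of those 13 passed an adjusted p of 0.05, 10 lay below 0 and their median was -0.20 in log2. The meningeal and fibroblast list had 4 of 8 markers past the filter, of which 1, Ogn, fell. Its summed intensity was 57.5 to 94.1 after doxycycline removal, with 81.7 to 109 on the diet, while the monotransgenic arrays of set 1 had 703 to 862. Bitransgenic and monotransgenic mice had 83.4 to 137 against 150 to 585 in experiment 2, and 76.9 to 200 against 83.1 to 950 in set 3. Ogn made up most of the highest sums, with 525 of the 585 and 824 of the 950. Of the 4 markers, 3 lay below 0 between removal and monotransgenic, 2 in experiment 2 and 4 in set 3, with medians of -0.83, 0.06 and -0.26. The neocortex and striatum list had 7 of 10 markers past the filter, of which 0 passed the test and 5 lay above 0. Its mean log2 level was 7.73 to 7.98 after removal, with 7.48 to 7.66 on the diet, while the monotransgenic arrays had 7.56 to 7.69. Bitransgenic and monotransgenic mice had 7.92 to 8.21 against 7.35 to 7.98 in experiment 2, and 7.64 to 7.81 against 7.27 to 7.84 in set 3. Over the 3 comparisons, all 13 tested markers of the oligodendrocyte and precursor list lay below 0, with a median of -0.19. In set 3 alone, 7 of them lay above 0. Of the 10 tested inhibitory neuron markers, 9 lay below 0 over the 3 comparisons and 1 above, with a median of -0.10. In neither list did a marker pass the test over the 3 comparisons. No marker of these lists was at 0 on any array. In bulk tissue, fewer cells of a type and less RNA per cell cannot be told apart.

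No member passed limma's test at an adjusted p of 0.05 in any comparison. With the transgene on, in the mean of set 1, experiment 2 and set 3, 12 members lay above monotransgenic levels and 18 below, with a median log2 difference of -0.10 and a median size of 0.17. Over all 12499 genes the median was 0.01 and the median size 0.10. The background is low in the same fit: 9 genes, or 0.072%, passed the adjusted threshold, while 11.8% had an unadjusted p under 0.05, as did 10 of the 30 members. The pair that stood farthest from 0 were Grik3, a kainate receptor subunit, with a log2 difference of -1.54 ± 0.33 (SE), and Grin3a, an NMDA receptor subunit, with 1.04 ± 0.23. Each had an adjusted p of 0.0622 by limma.

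**Figure D1:**
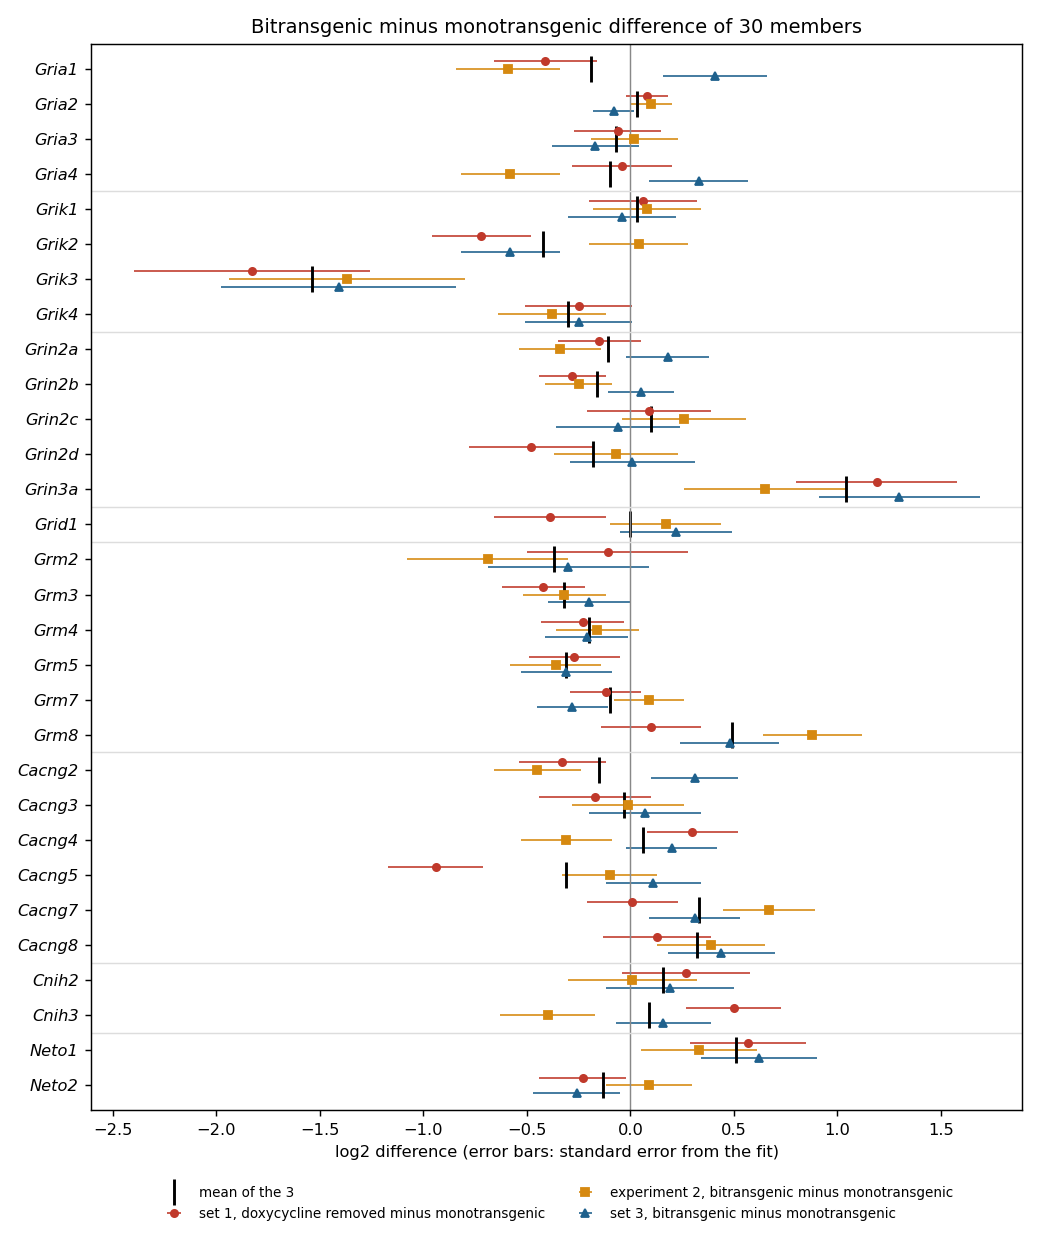
Log2 difference of each of the 30 tested members (rows, grouped by receptor class) between arrays with the transgene on and monotransgenic arrays in set 1, experiment 2 and set 3, with the standard error of the fit (n = 3 arrays per group), and the mean of the 3 differences as a black tick. Grik3 lies farthest to the left, with a mean of -1.54, and Grin3a farthest to the right, with 1.04. The means of 19 of the 30 lie within 0.3 of 0.

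Kainate receptor subunits held the largest difference. Grik3 encodes GluK3, a low-affinity kainate receptor subunit that granule cells express. Its intensity was 33.9, 90 and 76.9 after doxycycline removal, with 263, 228 and 131 on the diet, while the monotransgenic arrays of set 1 had 265, 244 and 318. The removed arrays were all below both other groups, and the diet and monotransgenic arrays overlapped. In experiment 2 it was 48.6, 22.9 and 35.8 in bitransgenic mice, against 88.1, 72.8 and 298 in monotransgenic mice, with no overlap. In set 3 it was 16.5, 61.8 and 35.8 in bitransgenic mice, against 233, 20.5 and 293 in monotransgenic mice. The value of 20.5 belongs to array 2, which alone made the groups overlap, and 16.5 to the bitransgenic array that shares its title prefix.

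The log2 difference of Grik3 was -1.40 ± 0.57 between removal and diet (fold 0.379), -1.83 ± 0.57 between removal and monotransgenic (fold 0.281), -1.37 ± 0.57 in experiment 2 (fold 0.387) and -1.41 ± 0.57 in set 3 (fold 0.377). Between diet and monotransgenic it was -0.43 ± 0.57. Removal was set against the diet and the monotransgenic groups with the same 3 removed arrays, so these values are not independent. The adjusted p by limma was 0.858, 0.296, 0.288 and 1 for the first 4 of these. Over the 3 transgene-on comparisons, an exact permutation test of 8000 relabelings within sets gave p = 0.00225 (two-sided, unadjusted), where the smallest possible p is 0.00025. Without array 2 of the monotransgenic group of set 3, the difference in set 3 was -2.36 (adjusted p = 0.0202 by limma) and that over the 3 sets -1.85 (adjusted p = 0.000475 by limma), both conditional on the choice of that array. Other left-out arrays gave smaller differences: -0.86 in set 3 without array 3 of the monotransgenic group, and -0.79 in experiment 2 without array 3 of its monotransgenic group. With the title prefix as a factor the difference in set 3 was -1.29 ± 0.54. That fit draws only on the 2 pairs of arrays that share a prefix. Their Grik3 intensities, bitransgenic against monotransgenic, were 16.5 against 20.5 and 35.8 against 293. A second Grik3 probe set lay below the filter, with a mean log2 level of 4.19, and its mean difference was 0.04.

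Grik2 encodes GluK2, the main kainate receptor subunit at mossy fibre synapses. It had 232, 231 and 220 after removal, with 314, 304 and 320 on the diet, while the monotransgenic arrays of set 1 had 390, 342 and 455. The 3 groups of set 1 did not overlap. The log2 differences were -0.41 ± 0.24 against the diet, -0.72 ± 0.24 against monotransgenic, with an adjusted p of 0.341 by limma, and -0.32 ± 0.24 between diet and monotransgenic. In set 3 Grik2 had 189, 203 and 272 in bitransgenic mice, against 340, 242 and 451 in monotransgenic mice, a difference of -0.58 ± 0.24, or -0.80 ± 0.25 without array 2 of the monotransgenic group. In experiment 2 the groups overlapped, with 249, 364 and 285 against 258, 210 and 446 and a difference of 0.04 ± 0.24. Its second probe set, below the filter, had a mean difference of -0.37 over the 3 sets, against -0.42 ± 0.14 for the brighter one.

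Grik4, which encodes a high-affinity subunit that forms receptors only with GluK1 to GluK3 type partners, ranged from 15.6 to 72.5 over all arrays, and its mean difference was -0.30 ± 0.15. Grik1, another pore-forming kainate subunit, ranged from 6.45 to 26.7, with a mean difference of 0.03 ± 0.15. Of the 4 kainate subunits tested, 3 lay below 0 over the 3 sets and the median was -0.36.

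The promoter windows of the pair of kainate genes with the largest negative differences are shown because both lay below the monotransgenic level in set 1 and set 3. RefSeq sequences of GRCm38.p6 were matched for 21 members by symbol. The window holds the 250 bases before the gene's start, read 5′ to 3′ on the gene's strand: chr4:125490446-125490695 (+) for Grik3 and chr10:49788755-49789004 (-) for Grik2. Capitals mark the GC box GGGCGG on either strand.
Grik3: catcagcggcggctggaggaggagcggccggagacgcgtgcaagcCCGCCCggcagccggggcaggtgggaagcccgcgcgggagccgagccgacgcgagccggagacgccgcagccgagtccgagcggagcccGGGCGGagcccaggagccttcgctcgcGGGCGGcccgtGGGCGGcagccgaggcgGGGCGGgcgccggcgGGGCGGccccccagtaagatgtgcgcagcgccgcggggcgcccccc
Grik2: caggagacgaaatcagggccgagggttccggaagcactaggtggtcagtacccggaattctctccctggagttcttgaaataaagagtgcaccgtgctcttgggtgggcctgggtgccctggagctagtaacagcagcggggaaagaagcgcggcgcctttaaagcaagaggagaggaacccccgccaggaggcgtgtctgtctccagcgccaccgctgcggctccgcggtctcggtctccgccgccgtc
The Grik3 window is 82.0% G or C and holds 6 GC boxes, while the Grik2 window is 62.8% G or C and holds 0. Of 32851 windows of this length, 32.7% hold the motif and the median G or C content is 52.4%. The cAMP response half-site TGACG, searched on both strands, was in 17.8% of windows and in neither of these. These are matches of letters in a window and not sites of binding.

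Among NMDA receptor subunits, Grin3a was the member with the largest positive difference. It encodes GluN3A, a subunit that lowers calcium entry and magnesium block and is known for its high level in early postnatal life. Its intensity was 292, 161 and 272 after removal, with 75.6, 49.6 and 46.7 on the diet, while the monotransgenic arrays of set 1 had 74.5, 86.7 and 135. All removed arrays lay above both other groups. In experiment 2 it was 340, 320 and 313 in bitransgenic mice, against 230, 317 and 120 in monotransgenic mice: on the normalized scale the groups did not overlap, but the highest monotransgenic array lay within the range of the bitransgenic intensities. In set 3 it was 571, 360 and 391, against 97.4, 400 and 117, and array 2 of the monotransgenic group, at 400, made the groups overlap. The 571 is on the bitransgenic array that shares its title prefix.

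The log2 difference of Grin3a was 1.83 ± 0.39 between removal and diet (fold 3.55), with an adjusted p of 0.130 by limma. Against monotransgenic arrays it was 1.19 ± 0.39 after removal (fold 2.28), 0.65 ± 0.39 in experiment 2 (fold 1.57) and 1.30 ± 0.39 in set 3 (fold 2.46). The diet group lay -0.64 ± 0.39 from the monotransgenic group, with an adjusted p of 1.00 by limma, and these groups did not overlap on the normalized scale, whereas their intensities did, between 74.5 and 75.6. Over the 3 transgene-on comparisons the exact permutation p was 0.0015 (two-sided, unadjusted). Without array 2 of the monotransgenic group, the difference in set 3 was 1.89 (adjusted p = 0.0170 by limma) and that over the 3 sets 1.24 (adjusted p = 0.000985 by limma), conditional on that choice as for Grik3. It was 0.94 in set 3 without array 1 of the monotransgenic group, and 0.25 in experiment 2 without array 3 of the monotransgenic group. With the title prefix as a factor, which leaves only the 2 pairs of arrays that share one, it was 1.07 ± 0.29 in set 3. A second bright probe set gave 1.78 against the diet and 1.00, 0.93 and 1.32 against monotransgenic arrays. Another, with a mean log2 level of 4.87 just below the filter, gave a mean of 0.09.

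**Figure D2:**
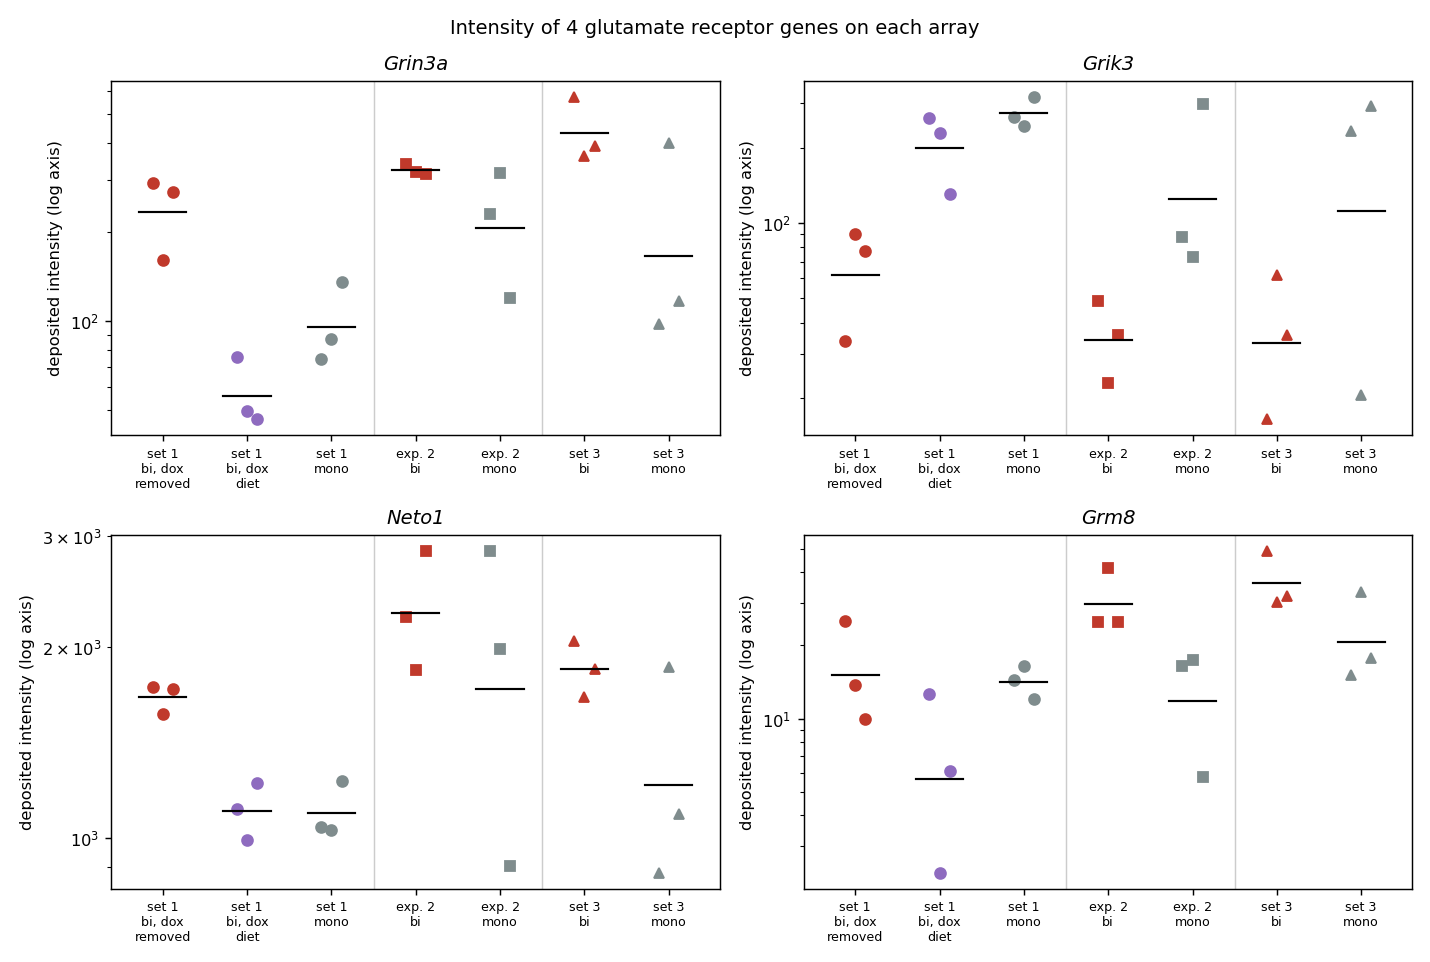
Deposited intensity (log axis) of Grin3a, Grik3, Neto1 and Grm8 on each of the 21 arrays, with the geometric mean of each group as a bar (n = 3). Groups are bitransgenic (bi) and monotransgenic (mono) of set 1, experiment 2 and set 3, and in set 1 doxycycline (dox) was removed or kept in the diet. The second array of the monotransgenic group of set 3 lies among the bitransgenic arrays, with Grin3a at 400 and Grik3 at 20.5.

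The other NMDA subunits had smaller differences. Grin2b encodes GluN2B, the slowly deactivating subunit. It had 331, 362 and 402 after removal, against 423, 412 and 419 on the diet, while the monotransgenic arrays had 463, 435 and 449. The 3 groups of set 1 did not overlap. Its log2 difference was -0.28 ± 0.16 between removal and monotransgenic (adjusted p = 0.764 by limma) and -0.10 ± 0.16 between diet and monotransgenic. The experiment 2 and set 3 groups overlapped, with differences of -0.25 ± 0.16 and 0.05 ± 0.16. The other 2 Grin2b probe sets past the filter gave -0.05 and 0.57 between removal and monotransgenic, and averaging over the probe sets gave 0.08. Grin2a, the faster subunit of mature synapses, ranged from 8.01 to 31.3, Grin2c from 9.89 to 56.4 and Grin2d from 3.01 to 65.7 over all arrays. Their mean differences were -0.11 ± 0.12, 0.10 ± 0.17 and -0.18 ± 0.18.

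Grid1, the delta receptor subunit GluD1, which binds cerebellins at synapses, had 421, 582 and 503 after removal, with 556, 638 and 495 on the diet, against 674, 675 and 620 on monotransgenic arrays. The removed and monotransgenic arrays did not overlap, with a difference of -0.39 ± 0.27 (adjusted p = 0.832 by limma). It was 0.17 ± 0.27 in experiment 2 and 0.22 ± 0.27 in set 3, so that the mean over the 3 sets was 0.00 ± 0.15.

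AMPA receptor subunits differed in sign between sets. Gria1 encodes GluA1, a subunit that carries activity-dependent insertion. It had 2620, 2260 and 3110 after removal, with 3560, 3380 and 3260 on the diet, while the monotransgenic arrays of set 1 had 3730, 2760 and 3770. The removed arrays lay below the diet arrays, at -0.44 ± 0.25, and overlapped the monotransgenic ones, at -0.41 ± 0.25. In experiment 2 it had 2060, 1530 and 1640 in bitransgenic mice, against 1540, 2410 and 4200 in monotransgenic mice, a difference of -0.59 ± 0.25 with overlap. In set 3 it had 2650, 3560 and 4150, against 2640, 2380 and 2700, a difference of 0.41 ± 0.25. The difference between experiment 2 and set 3 was -1.0 ± 0.35, and that between set 1 and set 3 was -0.82 ± 0.35, with adjusted p of 0.582 and 1.00 by limma. The second Gria1 probe set, with a mean log2 level of 11.13 against 11.44, gave 0.06 between removal and diet, and -0.09, -0.48 and 0.00 against monotransgenic arrays in set 1, experiment 2 and set 3.

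Gria4, which encodes the fast-gating subunit GluA4, had 184, 142 and 157 after removal, with 143, 117 and 122 on the diet, while the monotransgenic arrays had 174, 178 and 158. The diet group lay below the monotransgenic group without overlap, with a difference of -0.38 ± 0.24. Experiment 2 gave -0.58 ± 0.24 and set 3 0.33 ± 0.24, a difference between these of -0.92 ± 0.34 with an adjusted p of 0.582 by limma. Without array 2 of the monotransgenic group of set 3, which had 293 for Gria4 against 185 and 120, it was -1.22 ± 0.30. The other Gria4 probe sets had positive differences in experiment 2. Gria2, the subunit that makes AMPA receptors impermeable to calcium, ranged from 4050 to 5680 and Gria3 from 771 to 1450 over all arrays. Through its brightest probe set, neither differed by more than 0.17 in any transgene-on comparison. The dimmest Gria2 probe set, with a mean log2 level of 8.05, gave 0.33, 0.33 and -0.11 against monotransgenic arrays in set 1, experiment 2 and set 3. The other Gria2 probe set gave -0.05, -0.11 and -0.01, and the second of Gria3 gave 0.15, -0.26 and -0.02.

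Auxiliary subunits of AMPA receptors include the TARPs, encoded by Cacng genes. Cacng5 encodes an atypical TARP. It had 64.3, 115 and 121 after removal, with 242, 185 and 141 on the diet, while the monotransgenic arrays of set 1 had 189, 210 and 225. The removed arrays were below both other groups, with log2 differences of -0.79 ± 0.23 against the diet (adjusted p = 0.449 by limma) and -0.94 ± 0.23 against monotransgenic (adjusted p = 0.155 by limma). In the other sets the groups overlapped, and the difference was -0.10 ± 0.23 in experiment 2 and 0.11 ± 0.23 in set 3. The difference between set 1 and experiment 2 was -0.83 ± 0.33 and that between set 1 and set 3 was -1.05 ± 0.33, with adjusted p of 0.579 and 1.00 by limma. A second Cacng5 probe set lay below the filter, with a mean log2 level of 4.56. It gave -0.02 between removal and diet and 0.44 between removal and monotransgenic.

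Cacng7, another atypical TARP, had 51.3, 31.8 and 27.7 in bitransgenic mice of experiment 2, against 15, 29.5 and 23 in monotransgenic mice, a log2 difference of 0.67 ± 0.22 (adjusted p = 0.208 by limma). On the normalized scale these groups did not overlap, nor did those of set 3, where the difference was 0.31 ± 0.22. In set 1 removal and monotransgenic arrays overlapped, at 0.01 ± 0.22, and the mean over the 3 sets was 0.33 ± 0.13. Its dimmer probe set did not give the same signs, with -0.41, 0.28 and -0.08. Cacng2 encodes stargazin, the prototype TARP. Its difference was -0.53 ± 0.21 between removal and diet, -0.33 ± 0.21 between removal and monotransgenic and -0.45 ± 0.21 in experiment 2. In set 3 it had 159, 154 and 179 in bitransgenic mice, against 126, 128 and 137 in monotransgenic mice, without overlap, at 0.31 ± 0.21. The mean over the 3 sets was -0.15 ± 0.12, and the dimmer probe set past the filter gave -0.17 in set 3.

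Cacng8, the TARP of hippocampal pyramidal and granule cells, had 58, 65 and 66.7 after removal, against 45.5, 29.4 and 56.4 on the diet, at 0.50 ± 0.26. Against monotransgenic arrays of set 1, which had 43.2 to 82.8, removal gave 0.13 ± 0.26 with overlap and the diet -0.37 ± 0.26. The mean of Cacng8 over the 3 sets was 0.32 ± 0.15. Cacng4 gave 0.30 ± 0.22 between removal and monotransgenic, without overlap on the normalized scale, but -0.31 ± 0.22 in experiment 2, and its mean over the 3 sets was 0.06 ± 0.13. Cacng3 ranged from 6.81 to 32.8 over all arrays, with a mean difference of -0.03 ± 0.16. Of the 6 TARPs, 3 lay above 0 and 3 below over the 3 sets, and all 6 lay above 0 in set 3 with a median of 0.25. Over all genes tested, 7093 of 12499 lay above 0 in set 3.

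Cornichons slow AMPA receptor gating. Cnih3 had 298, 299 and 336 after removal, with 273, 252 and 305 on the diet, while the monotransgenic arrays of set 1 had 219, 226 and 207. Both bitransgenic groups lay above the monotransgenic group, with log2 differences of 0.50 ± 0.23 after removal (adjusted p = 0.608 by limma) and 0.32 ± 0.23 on the diet. In experiment 2 the difference was -0.40 ± 0.23, with overlapping groups, and that between set 1 and experiment 2 was 0.91 ± 0.33 (adjusted p = 0.532 by limma). Cnih2 ranged from 63.3 to 252, with a mean difference of 0.16 ± 0.18.

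Neto proteins are auxiliary subunits of kainate receptors, and Neto1 also binds NMDA receptors. Neto1 had 1730, 1570 and 1720 after removal, with 1110, 994 and 1220 on the diet, while the monotransgenic arrays of set 1 had 1040, 1030 and 1230. The removed arrays were above both other groups. In experiment 2 it had 2230, 1840 and 2840 in bitransgenic mice, against 2840, 1990 and 902 in monotransgenic mice, with overlap. In set 3 it had 2050, 1670 and 1850, against 882, 1860 and 1090, where again array 2 of the monotransgenic group lay among the bitransgenic arrays. The log2 differences were 0.56 ± 0.28 against the diet and 0.57 ± 0.28, 0.33 ± 0.28 and 0.62 ± 0.28 against monotransgenic arrays. The mean of the last 3 was 0.51 ± 0.16, with an adjusted p of 0.182 by limma and an exact permutation p of 0.017. Without array 2 it was 0.61 (adjusted p = 0.0312 by limma), again conditional on the choice of that array, and the difference in set 3 was 0.94 ± 0.28. That difference was 0.39 without array 1 of the monotransgenic group. The other 2 probe sets gave means of 0.42 and 0.33. Neto2 ranged from 29.8 to 78.9, with a mean difference of -0.13 ± 0.12.

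**Figure D3:**
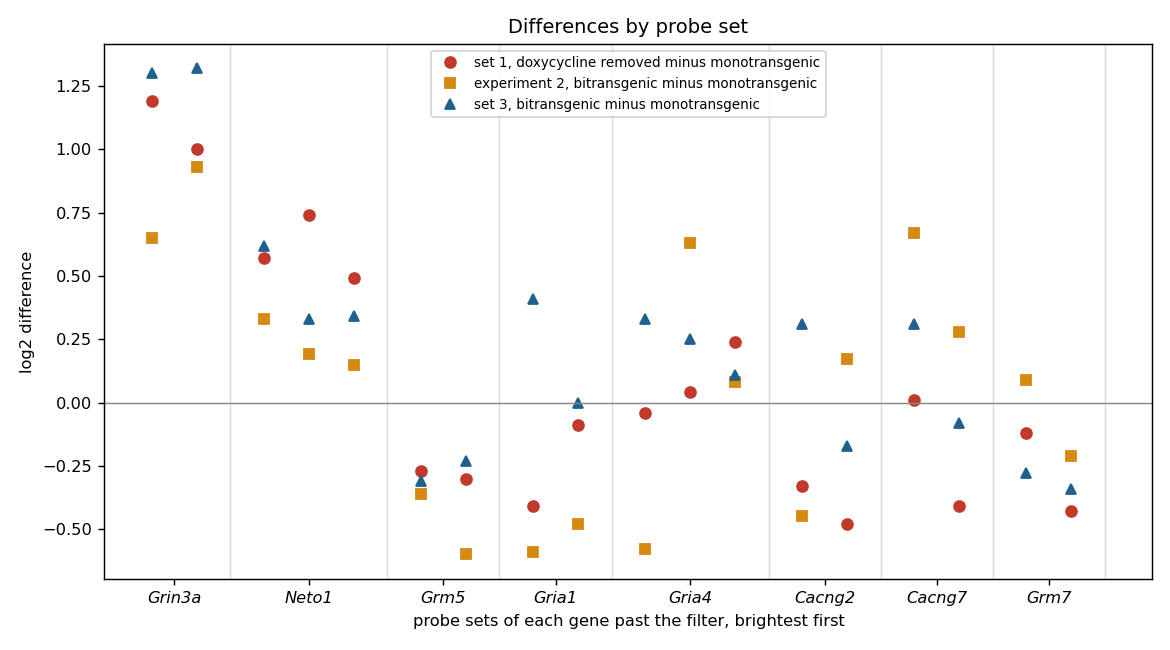
Log2 difference between transgene-on and monotransgenic arrays in set 1, experiment 2 and set 3 for every probe set past the filter of 8 members, brightest first within a gene. The probe sets of Grin3a, Neto1 and Grm5 keep 1 sign throughout, while those of Gria4, Cacng2 and Cacng7 do not.

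Over the members with several probe sets past the filter, 12 in number, all probe sets of a gene had 1 sign in the mean of the 3 sets for 7: Gria1, Gria3, Grin3a, Grm5, Grm7, Cacng2 and Neto1.

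Metabotropic receptors lay mostly below 0, with 5 of 6 negative over the 3 sets and a median of -0.26. Grm8, a presynaptic group III receptor, was the exception. It had 25, 41.5 and 25 in bitransgenic mice of experiment 2, against 16.5, 17.4 and 5.74 in monotransgenic mice, without overlap, a log2 difference of 0.88 ± 0.24 (adjusted p = 0.137 by limma). In set 3 it had 49, 30.3 and 31.9, against 15.1, 33.1 and 17.7, and the value of 33.1 was that of array 2. In set 1 it had 25.1, 13.7 and 9.95 after removal, with 12.6, 2.33 and 6.08 on the diet, while the monotransgenic arrays had 14.4, 16.5 and 12.1. The removed arrays overlapped each of the other groups. The mean over the 3 sets was 0.49 ± 0.14, with an adjusted p of 0.128 by limma and an exact permutation p of 0.00625. Its mean log2 level of 5.10 is close to the filter at 4.90. The group means were 5.61 and 5.74 in bitransgenic mice of experiment 2 and set 3, while the diet group had 4.47, the monotransgenic group of set 1 4.89 and that of experiment 2 4.73. Grm8 thus passed the filter through groups where it was high, so these p-values are given as a description. Of the 30 tested members, Grik1 and Grin2a also had a group mean below the filter.

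Grm5, the group I receptor that signals through phospholipase C, had 695, 837 and 702 after removal, with 827, 892 and 949 on the diet, against 880, 904 and 875 on monotransgenic arrays. On the normalized scale the removed group lay below both others, at -0.27 ± 0.22 in each comparison. Experiment 2 and set 3 gave -0.36 ± 0.22 and -0.31 ± 0.22, and the mean of the 3 transgene-on comparisons was -0.31 ± 0.13. Grm3, a group II receptor found on astrocytes and neurons, had 147, 127 and 137 on the diet, against 231, 208 and 194 in monotransgenic mice, a difference of -0.56 ± 0.20 without overlap (adjusted p = 0.923 by limma). Its mean over the 3 transgene-on comparisons was -0.32 ± 0.12. Grm2, also of group II, had 157, 202 and 203 in bitransgenic mice of set 3, against 238, 220 and 244 in monotransgenic mice, at -0.30 ± 0.39. Grm4 and Grm7, of group III, had means of -0.20 ± 0.12 and -0.10 ± 0.10. The second Grm7 probe set past the filter, with a mean log2 level of 6.51 against 10.62, gave a mean of -0.33.

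The counts per comparison stood as follows, each read against its share over all 12499 genes. Between removal and diet, 4 members lay above the other group without overlap on the normalized scale and 6 below, where 7.99% of all genes lay above and 8.25% below. The 4 were Gria4, Grin3a, Cacng8 and Neto1, and the 6 were Gria1, Grik2, Grik3, Grin2b, Grm5 and Cacng5. Between removal and monotransgenic it was again 4 above and 6 below, against 10.8% and 11.4%. Grin3a, Neto1, Grik2, Grik3, Grin2b, Grm5 and Cacng5 kept their side, joined by Cacng4 and Cnih3 above and Grid1 below. The same removed arrays stand in both comparisons. Between diet and monotransgenic, Cnih3 lay above and Gria4, Grik2, Grin2b, Grin3a and Grm3 below, or 1 and 5, against 7.3% and 7.58%. In experiment 2, Grin3a, Grm8 and Cacng7 lay above and Grik3 below, or 3 and 1, against 5.12% and 3.57%. In set 3, Cacng2 and Cacng7 lay above and Grm2 below, or 2 and 1, against 8.78% and 4.72%.

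The same sign in each set, with no overlap in at least 2 sets, was seen for Grin3a and Cacng7 above and Grik3 below, where 1.23% of all genes did so above and 0.736% below. Of the 30 members, 12 had 1 sign in all 3 transgene-on comparisons, against 29.7% of all genes. The adjusted threshold, which 0 members passed, was passed by 0.032% of all genes between removal and diet, 0.072% between removal and monotransgenic, 0.024% between diet and monotransgenic, 0.096% in experiment 2 and 0% in set 3 and in the 3 differences between sets. An unadjusted p under 0.05 was found for 5 members between removal and diet, against 5.04% of all genes, and for 6 between removal and monotransgenic, against 7.86%. It was found for 1 between diet and monotransgenic, against 3.85%, for 6 in experiment 2, against 14.4%, and for 4 in set 3, against 4.19%. For the differences between sets the counts were 5 for set 1 and experiment 2, against 7.91%, 3 for set 1 and set 3, against 3.5%, and 3 for experiment 2 and set 3, against 8.09%.

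The order of the arrays by Grik3, Grin3a and Neto1 was the same at its coarsest level, as was noticed after their values were seen. It sets arrays of different sets side by side and is a description only. The 12 arrays lowest in Grik3, at 16.5 to 90, were the 12 highest in Grin3a, at 161 to 571, and the 12 highest in Neto1, at 1570 to 2840. The other 9 arrays had 131 to 318, 46.7 to 135 and 882 to 1230. The 12 held every array with the transgene on, array 2 of the monotransgenic group of set 3, and arrays 1 and 2 of the monotransgenic group of experiment 2. The diet arrays were among the 9. Within groups the order agreed less: the array of highest Grik3 had the lowest Grin3a in 3 of the 7 groups and the lowest Neto1 in 3. The array of highest Grin3a had the highest Neto1 in 3 of the 7. The cut at 12 arrays was set by hand and no clustering was run. It lay between 90 and 131 for Grik3 and between 135 and 161 for Grin3a. No correlation is given, since the arrays come from different groups and sets.

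**Figure D4:**
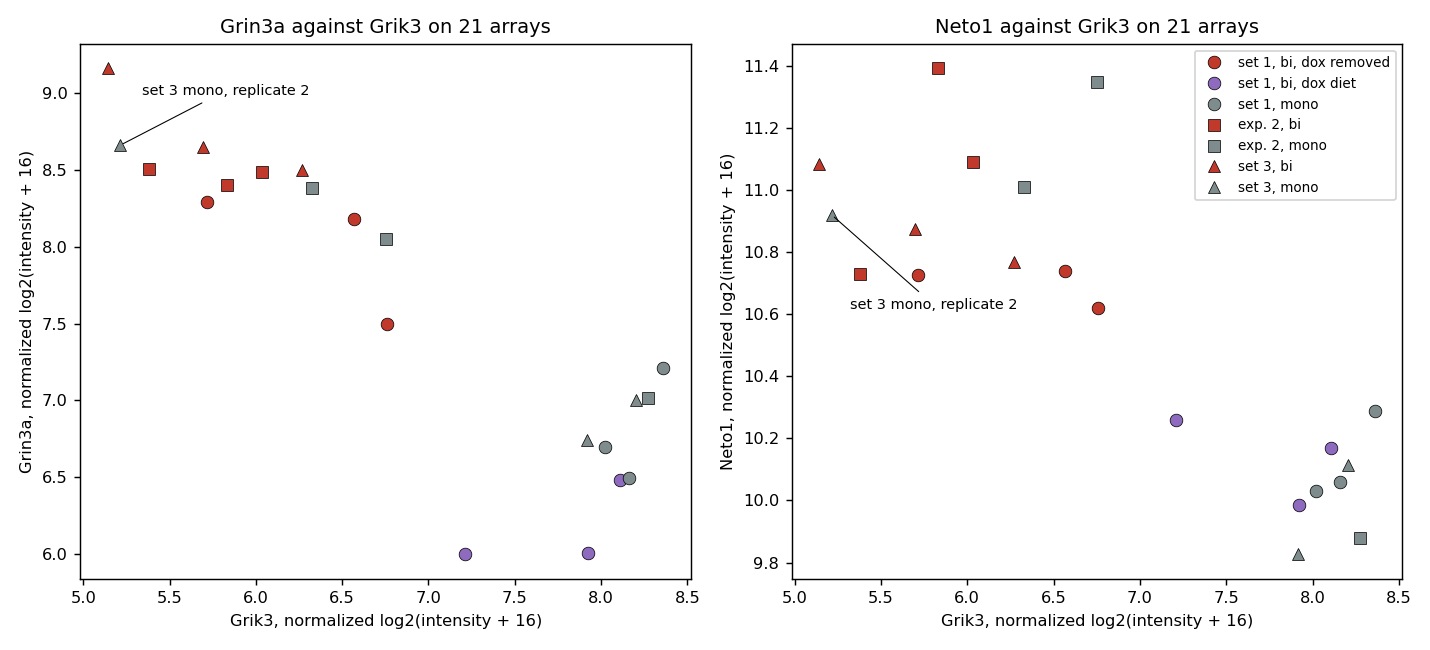
Normalized log2(intensity + 16) of Grin3a (left) and Neto1 (right) against Grik3 on the 21 arrays, by group (bi, bitransgenic; mono, monotransgenic; dox, doxycycline). The 12 arrays lowest in Grik3 include the 9 that had the transgene on. The others are array 2 of the monotransgenic group of set 3 and arrays 1 and 2 of the monotransgenic group of experiment 2.

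Marker levels followed this order in part. Ogn, the meningeal marker osteoglycin, had 41.2 on array 2 of the monotransgenic group of set 3, against 824 and 652 on arrays 1 and 3, and 24.1, 143 and 44.9 on the bitransgenic arrays. In monotransgenic mice of experiment 2 it had 153, 79.6 and 525, with the highest value on array 3. By title, that array lacks an ending that all other arrays of experiment 2 share, and the labels do not say what the ending marks. On the diet arrays, however, Ogn was 8.54, 26.8 and 16.5 while Grik3 was high. The mean log2 level of the neocortex and striatum list was 7.84 on array 2 of the monotransgenic group of set 3, against 7.27 and 7.47 on arrays 1 and 3, and 7.98, 7.71 and 7.35 on the monotransgenic arrays of experiment 2. Over all sets this level was 7.64 to 8.21 on the 12 arrays low in Grik3 and 7.27 to 7.69 on the other 9. The list's summed intensity was 2069 to 3607 on the 12 and 1402 to 2007 on the 9, where the diet arrays had 1603 to 1827. The mean log2 level of the dentate granule cell list was 10.16 on array 2 of the monotransgenic group of set 3, against 10.41 and 10.45 on arrays 1 and 3, and 10.20, 10.09 and 10.39 on the monotransgenic arrays of experiment 2. This list did not follow the order in set 1. The diet arrays, high in Grik3, had 10.13 to 10.19, within the 9.94 to 10.26 of the removed arrays. Between the groups of set 3, 6 of the list's 13 tested markers had an unadjusted limma p under 0.05, against 4.19% of all genes. The median log2 difference was -0.32. In experiment 2 the count was 1, against 14.4%, with a median of -0.10. Between removal and monotransgenic it was 6, against 7.86%, with a median of -0.29. The part of these markers in the differences of Grik3, Grin3a and Neto1 was not tested.

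Other genes of glutamate signalling gave no call either. Among 22 further receptor and auxiliary genes 15 were tested, among 31 trafficking and scaffold genes 25, among 21 transport and metabolism genes 14, and among 21 kinases and phosphatases 20, and 0 passed in any comparison. Their medians over the 3 transgene-on comparisons were 0.02, -0.07, -0.03 and -0.02. Homer2, a scaffold that links group I metabotropic receptors to internal calcium stores, had the lowest p of them, with 0.90 ± 0.21 and an adjusted p of 0.0761 by limma. C1ql3, a secreted protein of mossy fibres that binds kainate receptor complexes, had -0.37 ± 0.10 (adjusted p = 0.108 by limma). Shisa6 and Gsg1l, auxiliary proteins of AMPA receptors, had -0.22 ± 0.09 and -0.28 ± 0.15. The amino acid transporter Slc1a4 had 0.29 ± 0.12 and glutamine synthetase, Glul, had -0.24 ± 0.12. The kinase genes Prkca and Camk2b had 0.35 ± 0.13 and -0.45 ± 0.18.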

How the data were processed

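The values are probe set intensities that the authors deposited for 21 arrays, 45101 probe sets each, on a linear scale. Their 2% trimmed mean was 150 on every array, so the authors had scaled the arrays alike, while the software and its settings are not given in the sources used here. Genes were named through the platform annotation, which gives 1 symbol to 34945 probe sets, several to 932 and none to 9160. From the intensities, log2(intensity + 16) was quantile-normalized, the upper 60% of probe sets by mean was kept, and the brightest probe set of each gene was taken. Fold changes understate those of dim genes on this scale.

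limma 3.58.1 (R 4.3.3) fitted 7 group means with a variance trend (14 residual degrees of freedom) and Benjamini-Hochberg adjustment over 12499 genes. The script was tested on simulated data. Single members were tested by exact permutation within sets. With 3 against 3 arrays no such p can be below 0.1, so it was run over the 3 sets together. Members named in a comparison were those past the threshold, the 4 of lowest p, and those without overlap of the groups, at most 10 (2 of lowest p for a difference between sets). Members, lists and rules were chosen with earlier results of these data known. The number of arrays limits the precision. Figures and promoter windows were made with Python.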

Additional observations from a re-analysis of the deposited data

How the results depend on the processing

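No paired analysis was possible because the replicate numbers follow accession order and the labels do not say that arrays are paired. In set 3, 2 arrays of each group share a title prefix with an array of the other group. With that prefix as a factor, 0 members and 0% of genes passed limma's test in set 3. That fit draws only on the 2 pairs of arrays that share a prefix, so its tests have little power and it is given as a description. The 7 named differences there kept their direction. The 51 named differences were recomputed under other pseudocounts, filters, scalings, probe set rules, array weights, fits and left-out arrays, 1110 values in all, of which 1106 kept their direction. Those that reversed were Grin2b between removal and monotransgenic (0.08), Gria4 between diet and monotransgenic (0.01) and Gria4 in experiment 2 (0.04) when the probe sets of a gene were averaged, and Grin2b between diet and monotransgenic (0.09) with the Gapdh ratio as covariate. The cause was not tested. 

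The count of members passing, 0 in the main analysis, changed as follows, with the share of all genes passing in brackets. With the set's arrays fitted alone it was 3 between removal and diet (Grin3a, Grik3 and Neto1, with 0.68% of genes) and 6 between removal and monotransgenic (2.64%). With array weights it was 1 between removal and diet (0.544%), 2 between removal and monotransgenic (2.03%), 5 in experiment 2 (7.12%), 1 in set 3 (0.312%), 9 over the 3 sets (1374 of 12499 genes), 1 for the difference between set 1 and experiment 2 (0.6%) and 1 for that between experiment 2 and set 3 (0.416%). Over the 3 sets it was 2 on the deposited scale (0.432%), 2 with centring on the 75th percentile (0.496%) and 2 at a threshold of 0.1 (1.02%), being Grik3 and Grin3a each time. It was 4 without the 2 arrays of highest actin ratio (3.32%) and 4 without experiment 2 (1.5%). Without those actin arrays it was 2 in experiment 2 (4.14%) and 1 for the difference between experiment 2 and set 3 (1.08%). Leaving out 1 array at a time gave 0 to 4 in experiment 2, 0 to 2 in set 3 and 0 to 4 over the 3 sets. The highest counts came without array 1 of the monotransgenic group of experiment 2 (Gria1, Grm2, Grm8 and Cnih3 there, with -0.95, -1.37, 0.95 and -0.74, and 5.17% of genes) and, in set 3, without array 2 of its monotransgenic group (0.584%). Over the 3 sets, each of these left 4, with 1.78% and 2.53% of genes. Over the 3 sets, leaving out 1 array gave -1.85 to -1.34 for Grik3, with adjusted p of 0.000475 to 0.174, and 0.91 to 1.24 for Grin3a, with adjusted p of 0.000985 to 0.174. Grm8 had no value with the upper 40% of probe sets. Dim members such as Grik1, Grin2d and Grm8 are limited by signal over background.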
